A study of Homo sapiens with 36 samples.

Results

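PERK KO cells on day 2 of cardiac differentiation were set beside wild type cells on day 1, as 3 libraries against 3, out of 36 libraries in the series. The 6 libraries were chosen by their labels, and the pairing of these days was chosen with earlier results of these data known, because day 2 PERK KO cells lay nearer to wild type day 1 than to wild type day 2. The overall nearness of the groups is therefore a description here and is not tested. The comparison addresses which differences remain when PERK KO cells are set beside wild type cells of an earlier day in place of cells of the same day.

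The series measured mRNA by RNA-seq in the human embryonic stem cell line H1, wild type or labelled PERK KO, at 6 days of differentiation to cardiomyocytes (days 0, 1, 2, 3, 5 and 10), with 3 libraries for each genotype and day. These are the days of the sample labels, which were used here; the series' own design text speaks of collection at days 0, 2 and 6, so day 1 of the pair rests on the labels alone. Both groups of the pair were in one chemically defined cardiac medium. The WNT agonist CHIR99021, a GSK3 inhibitor, was in the medium on days 0 to 1, heparin was added from day 1, and IWP2, which blocks WNT secretion through PORCN, was in it on days 2 to 5. The day 1 wild type cells and the day 2 PERK KO cells thus differed in genotype, day and medium together, and the parts of these in any difference below cannot be told apart. The sources used here do not give how PERK was deleted or whether the knockout is 1 clone. The labels do not say that replicates came from separate cultures, so the p-values measure only the spread between these libraries. In bulk RNA, fewer cells of a type and less RNA per cell cannot be told apart.

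PERK, the product of EIF2AK3, is a kinase in the membrane of the endoplasmic reticulum that phosphorylates the translation factor eIF2 when unfolded proteins accumulate. Phosphorylated eIF2 slows most translation and favours that of the transcription factor ATF4, which raises genes of amino acid import, amino acid synthesis and tRNA charging; with the kinases EIF2AK1, EIF2AK2 and EIF2AK4, which respond to other stresses, this is the integrated stress response. In cardiac differentiation, a pulse of WNT signalling takes stem cells through a primitive streak state marked by TBXT and MIXL1, and later WNT inhibition favours cardiac mesoderm marked by MESP1, GATA4 and HAND1.

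The 6 libraries held 17941128 to 25860481 counted reads. Among the other libraries of the series, PERK KO day 0 replicate 2 stood apart with a mean effective transcript length of 1736 nucleotides, against 2540 and 2495 in the other day 0 PERK KO libraries. The 6 libraries of the pair had mean lengths of 2505 to 2556. In wild type day 2, replicate 3 had a mean length of 2400, against 2665 and 2610 in its replicates 1 and 2. Leaving out this library and the day 0 PERK KO one raised the number of genes called below from 4953 to 6803 of 20269 tested (33.6%). Means, medians and distances given below for wild type day 2 include its replicate 3 and may depend on it.

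By the root mean square difference in log2(CPM + 1) over all genes tested, where CPM is the count scaled to the size of its library, the day 2 PERK KO libraries lay 0.606, 0.588 and 0.596 from the mean of wild type day 1. They lay 0.734, 0.712 and 0.725 from wild type day 0, and 0.892, 0.83 and 0.858 from wild type day 2. Wild type day 1 was thus the nearest wild type day for each of the 3 libraries. The groups were still not alike: the wild type day 1 libraries lay 0.169 to 0.182 from the mean of the other two. The day 1 PERK KO libraries lay nearer to wild type day 1, at 0.459, 0.475 and 0.475, than the day 2 libraries did. The libraries of wild type day 2 were uneven for some genes. MKI67 measured 75.9 CPM in replicate 3, against 241 and 268 CPM in replicates 1 and 2. FGFR2 was even there, at 74.5 CPM against 71.1 and 71.8 CPM.

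**Figure D1:**
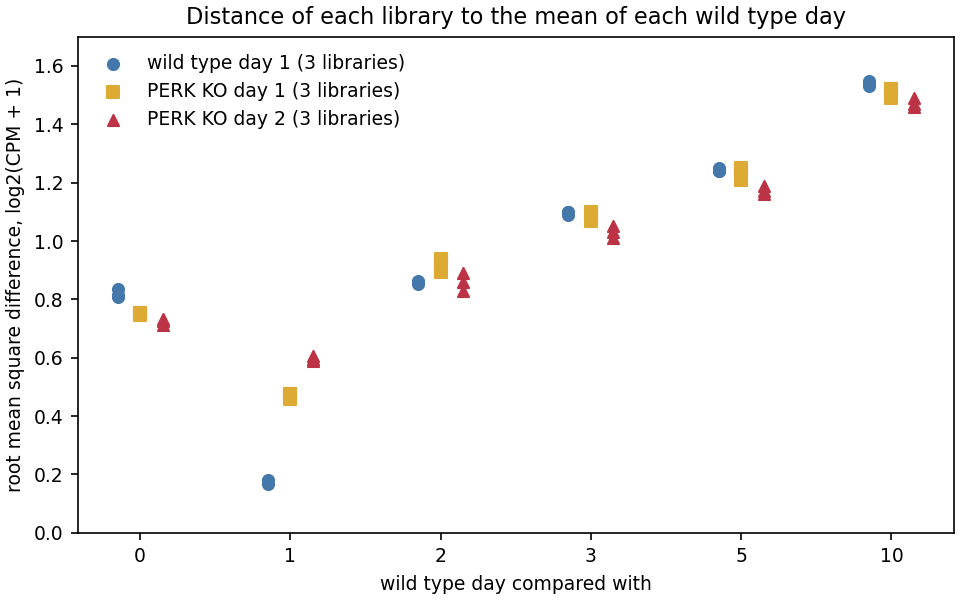
Root mean square difference in log2(CPM + 1) between each library and the mean of each wild type day, with 1 point per library and wild type day 1 libraries compared with the mean of the other two on their own day. The day 2 PERK KO libraries have their lowest distances, 0.588 to 0.606, at wild type day 1, above those of the day 1 PERK KO libraries.

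Of 19772 genes tested, 4953 (25.1%) were called different at an adjusted p under 0.05 (edgeR quasi-likelihood test with Benjamini-Hochberg adjustment). Of these, 2554 (12.9%) were higher and 2399 (12.1%) were lower in PERK KO day 2. The difference was called and at least 2-fold for 2477 genes (12.5%), 1291 higher (6.53%) and 1186 lower (6%). For 10347 genes (52.3%), the 95% interval of the fold change lay within 2-fold; since the pair was chosen for its nearness, this share supports nothing. A fit of the 6 libraries alone, in which the spread comes from these libraries and not from all 36, called 9656 of 16612 genes (58.1%). List counts from that fit, given below where they differ by more than 1.5 times, are read against that share.

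EIF2AK3 mRNA, encoded on chromosome 2 at 88556741 to 88627576 (GRCh38, minus strand), was higher in PERK KO day 2 than in wild type day 1. It measured 22.5, 18.6 and 20.9 CPM in PERK KO day 2 and 11.1, 10.1 and 10.9 CPM in wild type day 1. The 3 PERK KO libraries of the pair were above its 3 wild type libraries, with a log2 fold change of 0.95 (SE 0.20, edgeR adjusted p = 5.01e-04). Wild type cells had 21.9 CPM ± 3.31 (SD, n = 3) on day 0 and 16 CPM ± 4.43 (SD, n = 3) on day 2. At day 5 the order was the other way, with 16.8, 15.9 and 17 CPM in PERK KO and 17.4, 22.3 and 20.1 CPM in wild type. An edit that stops the protein can leave the mRNA in place, so this level does not check the label, and PERK KO is used below as the label of these libraries.

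Genes of the integrated stress response were lower in PERK KO day 2 for most members of the list. Of 45 members tested, 34 were lower, 3 were higher and 8 were not called, with a median log2 fold change of -0.97, against a median of 0 and 12.1% lower over all genes tested. In day 1 PERK KO against the same wild type day 1 libraries, 16 members were lower, 1 was higher, and the median was -0.39. Against wild type day 2, 13 members were lower and 12 higher in PERK KO day 2, with a median of 0.04. The median of wild type day 2 minus wild type day 1 was -0.83, so these genes were also lower on day 2 than on day 1 in wild type cells.

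A core of the response element bound by C/EBP and ATF factors, TGATGNAA on either strand, was searched in the 250 bases before the start of each gene. RefSeq promoters (GRCh38.p14) matched 38 of the 45 members, and 6 of the 38 (15.8%) held the motif, against 870 of 27305 promoters of all genes (3.19%). All 6 were among the 28 matched members that were lower, and none was among the 10 others. Counts this small cannot show whether the motif goes with being lower, which was not tested. Of the 6, IARS lost its call with any 1 library of the pair left out, and FGF21 was near the floor, at 0.311 to 0.577 CPM in wild type day 1. Windows around 4 of the 6 are shown because these 4 genes run from a large change (ASNS) to a small one (AARS). The motif is in capitals. ASNS lies on the minus strand at chr7:97872429-97872516, CHAC1 on the plus strand at chr15:40953222-40953309, ATF3 on the plus strand at chr1:212565176-212565263 and AARS on the minus strand at chr16:70289646-70289733. Each is written 5′ to 3′ in the direction of its gene, so that the motif of CHAC1 and AARS reads as its reverse complement. A match is a description of these letters and not a bound site.
ASNS: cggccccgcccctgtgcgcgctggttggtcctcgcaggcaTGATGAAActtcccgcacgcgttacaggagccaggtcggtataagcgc
CHAC1: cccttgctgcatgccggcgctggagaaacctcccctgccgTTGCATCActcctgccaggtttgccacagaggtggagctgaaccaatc
ATF3: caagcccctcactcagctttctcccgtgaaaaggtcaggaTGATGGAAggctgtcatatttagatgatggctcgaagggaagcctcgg
AARS: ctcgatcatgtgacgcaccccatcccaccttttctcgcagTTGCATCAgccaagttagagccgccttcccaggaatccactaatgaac

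ASNS, which makes asparagine, measured 41.5, 44.3 and 48.5 CPM in PERK KO day 2 and 335, 311 and 337 CPM in wild type day 1. Its motif stood 68 bases before the start. The groups did not overlap, which held for 57% of all genes tested, and the log2 fold change was -2.87 (SE 0.15, edgeR adjusted p = 5.48e-15). Wild type day 2 had 70.3 CPM ± 11.7 (SD, n = 3), and PERK KO day 1 had 219 CPM ± 14 (SD, n = 3), so that most of the distance from wild type day 1 was not there in day 1 PERK KO cells. SLC7A5, a subunit of the large neutral amino acid transporter, measured 238, 295 and 266 CPM against 1593, 1791 and 1780 CPM in wild type day 1. Its log2 fold change was -2.69, and wild type day 2 stood at 248 CPM, close to the PERK KO day 2 libraries. PSAT1, a serine synthesis enzyme, measured 139, 141 and 141 CPM against 576, 550 and 580 CPM, a log2 fold change of -2.02, with 132 CPM in wild type day 2. GARS, the glycyl-tRNA synthetase, measured 166, 159 and 175 CPM against 384, 379 and 370 CPM, a log2 fold change of -1.18.

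ATF4 itself was lower by less than the enzymes named above. It and the other members in this paragraph, apart from CTH, were chosen after their values were seen. ATF4 measured 311, 321 and 332 CPM in PERK KO day 2 and 575, 564 and 558 CPM in wild type day 1, a log2 fold change of -0.81 (SE 0.18, edgeR adjusted p = 9.28e-04), and wild type day 2 had 332 CPM. ATF3 had a log2 fold change of -1.30 and CHAC1, which degrades glutathione, one of -1.43. AARS, the alanyl-tRNA synthetase, had a log2 fold change of -0.71. DDIT3, the ATF4 target also known as CHOP, was at 2.91 to 3.24 CPM against 1.73 to 3.38 CPM, groups that overlapped, and was not called. CTH, a cysteine synthesis enzyme, had a log2 fold change of -0.60. The 3 higher members were TXNIP (log2 fold change 1.90), DDIT4 (1.47) and VLDLR (0.48), which encode a thioredoxin inhibitor, an mTORC1 inhibitor and a lipoprotein receptor. VLDLR was no longer called without PERK KO day 2 replicate 3 (edgeR adjusted p = 0.0725).

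With both directions pooled, genes of the other branches of the unfolded protein response were called at about the share of all genes (28.6% against 25.1%). By direction the calls were uneven. Of 28 chaperone and unfolded protein response genes tested, 7 were lower, 1 was higher and 20 were not called, where 12.1% of all genes were lower and 12.9% higher. Below all 18 wild type libraries lay 3 of the 28, against 1.55% of all genes. An interval within 2-fold was found for 23 of the 28, against 52.3% of all genes. In the fit of the 6 libraries alone, 16 were lower and 3 higher, and without either wild type day 1 replicate 1, PERK KO day 2 replicate 1 or PERK KO day 2 replicate 3, or with no filter on low counts, 4 were lower. Without the 2 libraries outside the pair named above, 11 were lower. SEC24D, a coat protein of vesicles that leave the endoplasmic reticulum, was the higher one, with 108, 102 and 111 CPM against 36.7, 33.8 and 31.3 CPM and a log2 fold change of 1.66. HERPUD1, a component of the degradation machinery of the endoplasmic reticulum, measured 8.67, 9.44 and 8.22 CPM against 15.8, 14.3 and 17.1 CPM, below each of the 18 wild type libraries of all days. XBP1, the transcription factor of the IRE1 branch, chosen after its values were seen, was below all wild type libraries too, with a log2 fold change of -0.64 (edgeR adjusted p = 0.0116, and 0.0758 with the length correction). HSPA5, the chaperone BiP, chosen likewise, had a log2 fold change of -0.53 and was no longer called with any 1 library of the pair left out (edgeR adjusted p 0.0513 to 0.124). Of 15 genes of eIF2, its kinases and its phosphatases, 2 were higher, 3 were lower and 10 were not called. The share called was 33.3%, against 25.1% over all genes. In the fit of the 6 libraries alone 5 were higher and 9 lower. PPP1R15A, the stress-induced subunit of the eIF2 phosphatase, had a log2 fold change of -1.03, and EIF2AK4, the kinase that responds to amino acid shortage, had one of 0.54.

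The list of WNT feedback and target genes had the lowest median of the 26 lists. Of 24 members tested, 19 were lower, 3 were higher and 2 were not called, against 12.1% lower and 12.9% higher over all genes tested. The median log2 fold change of the members was -2.22. In day 1 PERK KO against wild type day 1 the median was -0.28, with 8 lower and 4 higher. From PERK KO day 1 to PERK KO day 2 it was -1.15, with 14 lower and 4 higher. These contrasts share libraries with the pair and are given side by side.

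**Figure D2:**
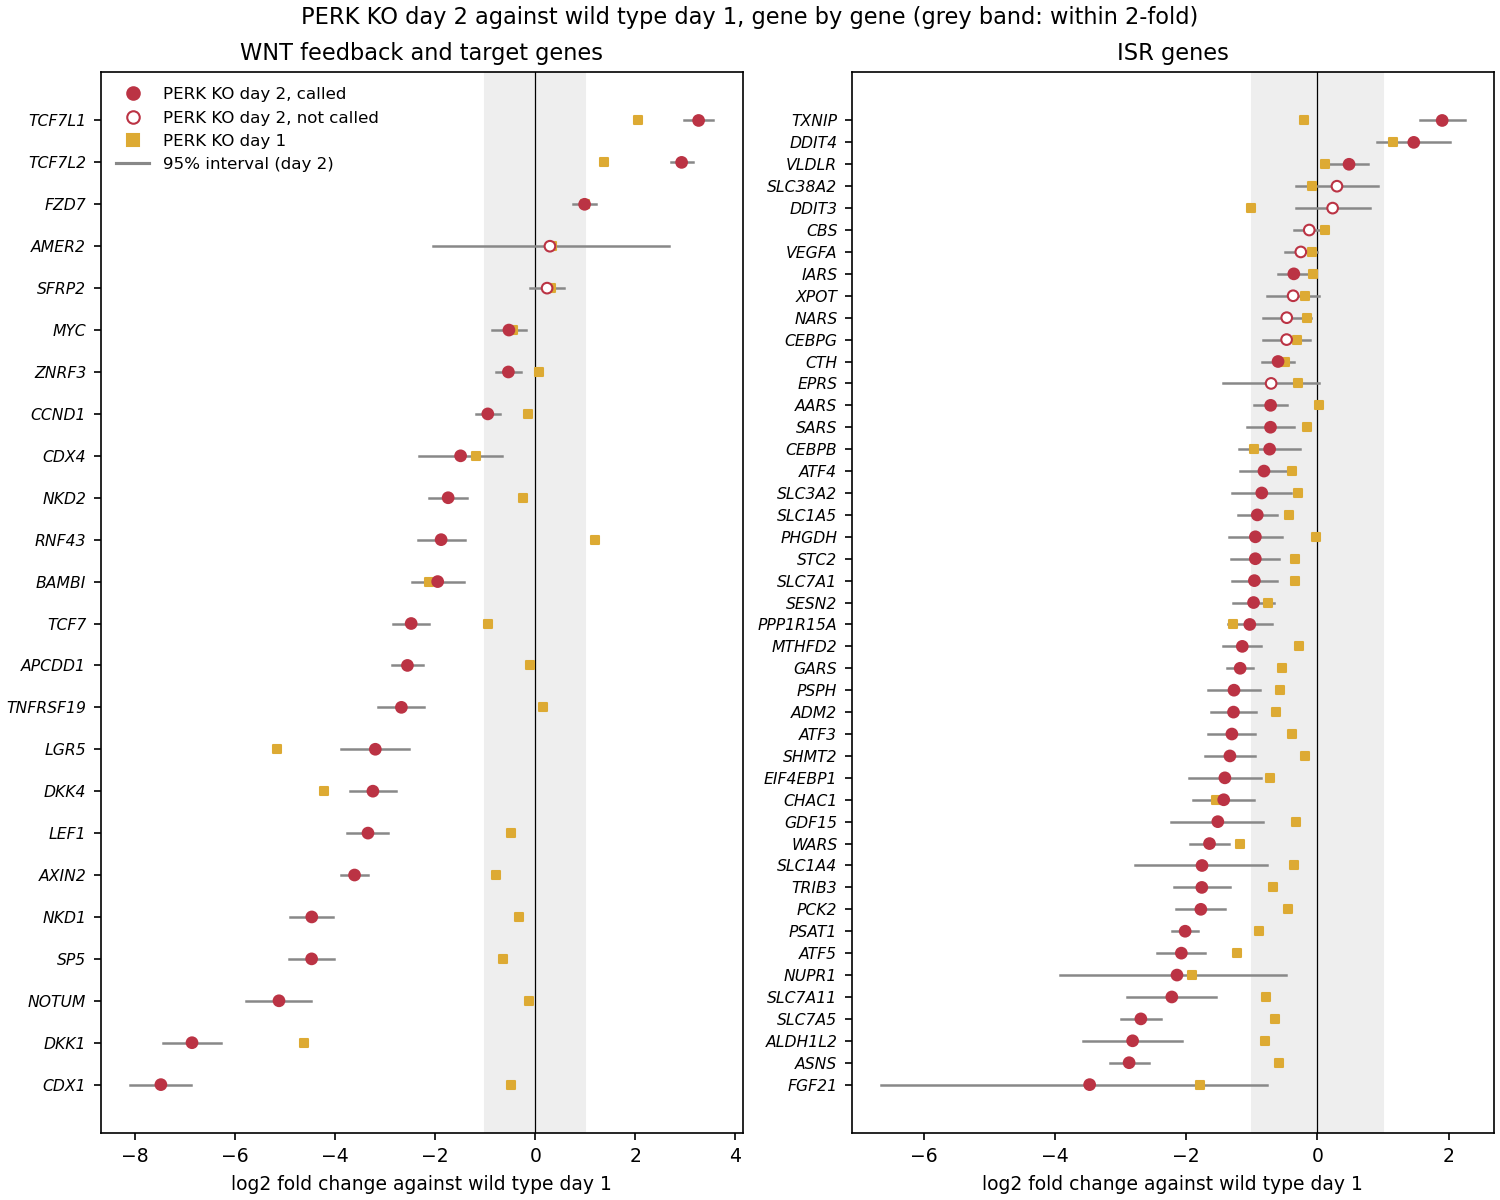
Log2 fold change against wild type day 1 for each tested WNT feedback and target gene (left) and integrated stress response (ISR) gene (right), with circles for PERK KO day 2, filled where called, lines for the 95% interval and squares for PERK KO day 1. Most circles lie left of 0, including AXIN2 at -3.61 and ASNS at -2.87, while most squares of the WNT genes lie nearer to 0.

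AXIN2, a negative regulator of the pathway that WNT signalling induces, measured 35.2, 39.1 and 36.1 CPM in PERK KO day 2 and 455, 453 and 443 CPM in wild type day 1. Its log2 fold change was -3.61 (SE 0.13, edgeR adjusted p = 2.59e-18). PERK KO day 1 had 263 CPM ± 12.7 (SD, n = 3) and wild type day 2 had 58.3 CPM ± 7.97 (SD, n = 3), so AXIN2 stood high on day 1 and low on day 2 in each genotype. DKK1, a secreted WNT antagonist, measured 7.29, 9.33 and 6.39 CPM against 966, 856 and 854 CPM, a log2 fold change of -6.86. Unlike AXIN2, DKK1 was at 36.3 CPM in PERK KO day 1, a log2 fold change of -4.62 against wild type day 1, and at 107 CPM in wild type day 2. WNT5B, a WNT ligand, measured 4.22, 3.97 and 4.27 CPM against 263, 245 and 226 CPM, a log2 fold change of -5.88. WNT3, the ligand that induces the streak, measured 9.49, 13.7 and 10.6 CPM against 59.4, 60 and 65.6 CPM, and was already at 12.4 CPM in PERK KO day 1.

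The TCF/LEF factors, the DNA-binding partners of β-catenin, split into 2 groups. TCF7L1, which acts mainly as a repressor, measured 131, 130 and 123 CPM in PERK KO day 2 and 10.9, 14 and 15 CPM in wild type day 1, a log2 fold change of 3.26. TCF7L2 measured 94.4, 94 and 96.7 CPM against 12.1, 14.5 and 11 CPM, a log2 fold change of 2.92. Both were high in wild type day 0, at 317 and 89.2 CPM. LEF1 and TCF7, chosen after their values were seen, moved the other way, with log2 fold changes of -3.35 and -2.48. On the scale of TPM, which divides by transcript length, TCF7L1 stood at 60 TPM ± 3.3 (SD, n = 3) and LEF1 at 8.67 TPM ± 0.311 (SD, n = 3) in PERK KO day 2, against 6.58 TPM ± 1.09 and 72.9 TPM ± 5.02 in wild type day 1. The order of the levels of these genes was thus opposite in the groups. SFRP1, a secreted WNT inhibitor, measured 583, 553 and 548 CPM against 25.7, 28.7 and 30.1 CPM, a log2 fold change of 4.32.

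The TCF/LEF core CTTTGAT, on either strand, was found in the same window of 1 of 14 matched WNT genes (7.14%) and of 622 promoters of all genes (2.28%). That gene was SP5, a transcription factor that WNT signalling induces, at chr2:170715188-170715274 on the plus strand, with the motif in capitals 109 bases before the start. SP5 measured 22.4, 32.1 and 23.2 CPM in PERK KO day 2 and 597, 579 and 551 CPM in wild type day 1, and was chosen for its motif.
SP5: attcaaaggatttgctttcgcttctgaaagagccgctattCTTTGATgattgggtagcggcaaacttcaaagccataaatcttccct

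Primitive streak genes were lower in PERK KO day 2, although the pair was the nearest across genotypes for these libraries. Of 29 members tested, 24 were lower, 2 were higher (CER1 and LHX1) and 3 were not called, against 12.1% lower and 12.9% higher over all genes tested. The median log2 fold change of the members was -2.05. Against wild type day 2 the median was -2.81, and against wild type day 0 it was 5.47. By its median, the streak list of PERK KO day 2 thus stood above undifferentiated cells and below wild type day 1. Single genes departed from this. CER1 and LHX1 stood above wild type day 1, and NODAL, at 33.5 to 42.9 CPM, overlapped wild type day 0, at 35.5 to 44.2 CPM.

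TBXT, the streak transcription factor, chosen after its values were seen, measured 20.6, 26.9 and 23.7 CPM in PERK KO day 2 and 1061, 1030 and 1034 CPM in wild type day 1 (log2 fold change -5.45, SE 0.22). PERK KO cells had 287 CPM on day 1, and 0.959 CPM on day 3. The wild type day 1 level was thus not seen at any of these PERK KO days. MIXL1, a homeobox factor of streak and mesendoderm, measured 66.1, 88.9 and 80.1 CPM against 1515, 1432 and 1480 CPM, with 321 CPM in PERK KO day 1. NODAL, the ligand that maintains the streak, measured 33.5, 42.9 and 37.1 CPM against 382, 386 and 373 CPM, with 203 CPM in PERK KO day 1 and 13.4 CPM in wild type day 2. EOMES, chosen after its values were seen, showed a smaller difference, with a log2 fold change of -1.29.

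Several homeobox genes that mark the posterior streak and body axis were at about 1 CPM or less in PERK KO day 2. CDX2, a caudal homeobox factor on chromosome 13 at 27962137 to 27971139, measured 0.494, 0.858 and 0.892 CPM in PERK KO day 2 and 222, 228 and 198 CPM in wild type day 1, a log2 fold change of -8.15 (SE 0.33). CDX1 measured 0.987, 1.23 and 0.892 CPM against 221, 186 and 152 CPM. Both had been near the wild type level in PERK KO day 1, at 152 CPM for CDX2 and 133 CPM for CDX1, with log2 fold changes of -0.51 and -0.49. EVX1, a posterior homeobox factor, measured 0.658, 1.07 and 0.47 CPM against 269, 257 and 265 CPM, and 65.4 CPM in PERK KO day 1. URAD, the neighbour of CDX2 at 27977714 to 27988654, had 0 counts over the PERK KO day 2 libraries and 335 over those of wild type day 1, and was at least 102-fold lower by a floor of 3 counts over the group. Such floors, and the counting intervals given below, cover counting error only.

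About equal numbers of cardiac mesoderm genes were called lower or not called. Of 25 cardiac mesoderm genes tested, 12 were lower, 2 were higher and 11 were not called, and of 20 presomitic mesoderm genes, 11 were lower, 2 were higher and 7 were not called, against 12.1% lower over all genes tested. The median log2 fold changes were -1.12 and -1.61, against -4.04 and -4.53 when PERK KO day 2 was set beside wild type day 2. The fit of the 6 libraries alone tested 18 of the cardiac mesoderm genes and called 4 higher and 11 lower. GATA4, a cardiac and endodermal zinc finger factor, measured 2.14, 2.79 and 2.16 CPM against 79.4, 75.8 and 72.7 CPM, a log2 fold change of -5.00. MSGN1, a presomitic mesoderm factor, measured 0.11, 0.322 and 0.0939 CPM against 28.9, 25.1 and 22.6 CPM, and was already at 0.511 CPM in PERK KO day 1. MESP1, the factor of early cardiac mesoderm, chosen after its values were seen, measured 0.823, 0.697 and 0.986 CPM against 12.5, 8.33 and 7.88 CPM. Its level in wild type day 2 was 163 CPM. SNAI1, a repressor of epithelial genes, measured 11.8, 13.7 and 11.8 CPM against 41.7, 38.9 and 38.6 CPM. It was below all 18 wild type libraries and was also lower in PERK KO at days 0, 3, 5 and 10.

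A few mesoderm and streak genes had an interval within 2-fold in the pair. KDR, the VEGF receptor of mesoderm and endothelium, measured 335, 394 and 409 CPM against 296, 286 and 288 CPM, a log2 fold change of 0.39 with an interval of -0.10 to 0.87. Its groups did not overlap, and KDR was called higher in the fit of the 6 libraries alone (edgeR adjusted p = 5.88e-05). WNT8A measured 3.51, 4.83 and 5.35 CPM against 5.75, 4.35 and 3.62 CPM, and its interval ran from -0.50 to 0.48; in wild type day 2 it stood at 115 CPM. FGF17, chosen after its values were seen, measured 86.4, 120 and 104 CPM against 125, 96.1 and 84.9 CPM (interval -0.48 to 0.52), having been at 6.64 CPM in PERK KO day 1. FGF17 in PERK KO day 2 thus overlapped wild type day 1, and TBXT and CDX2 did not.

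**Figure D3:**
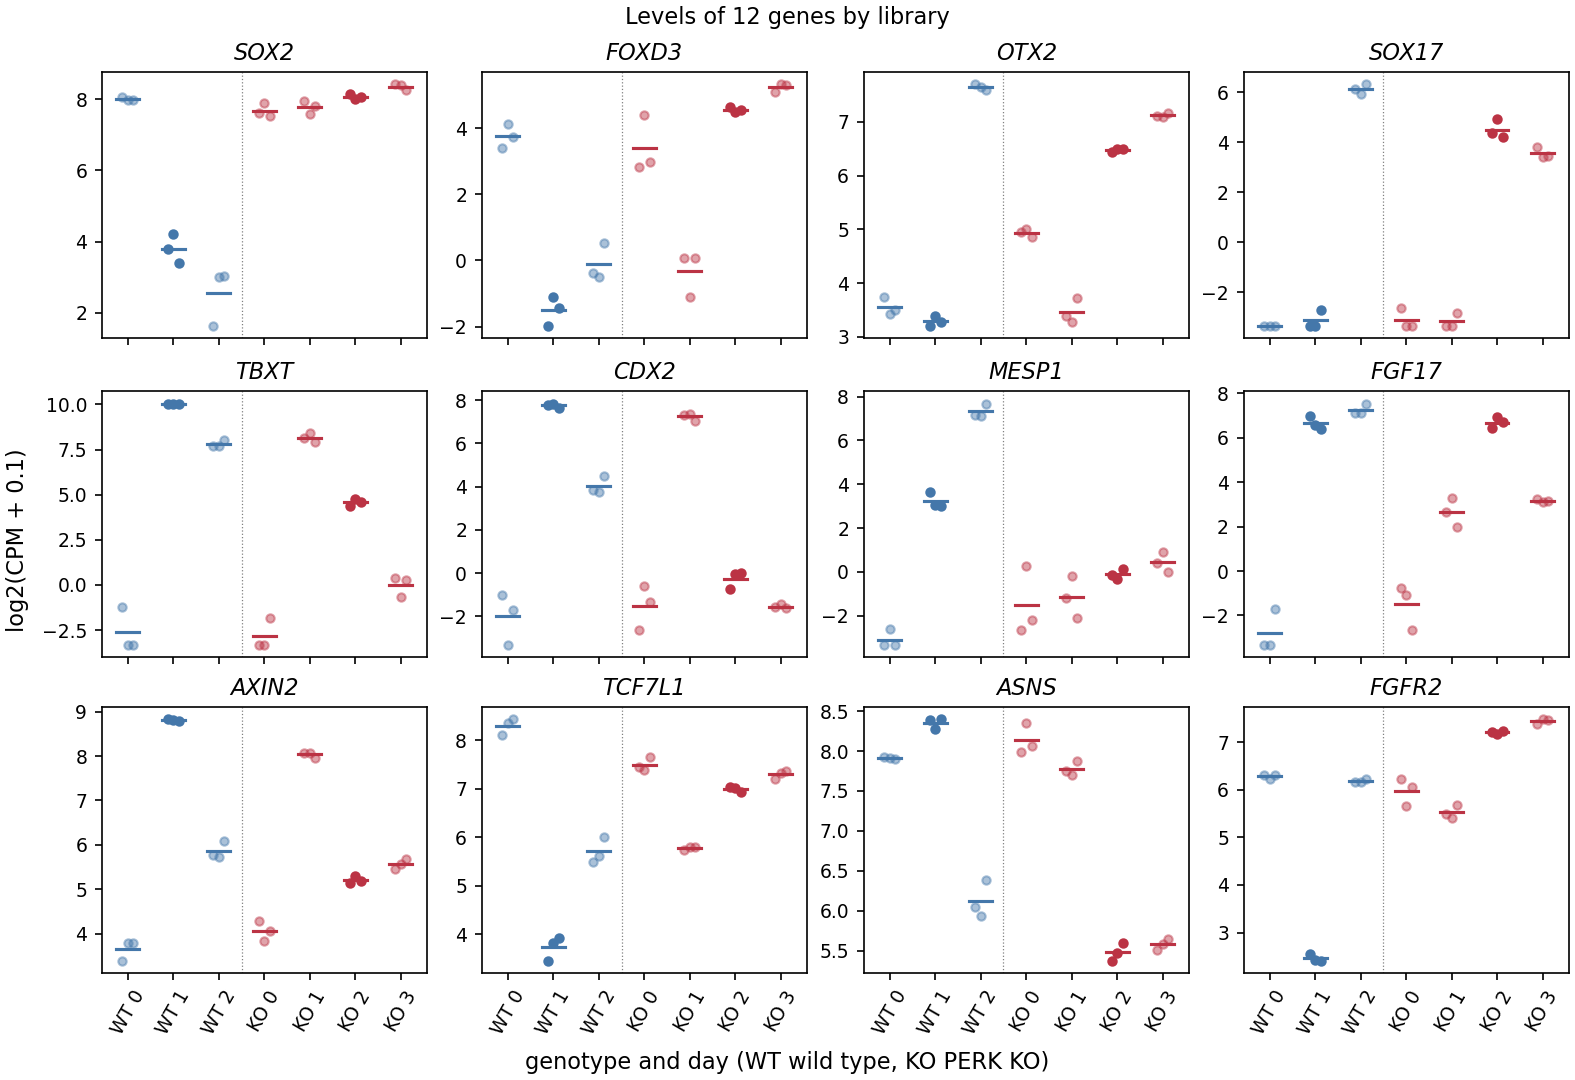
Levels of 12 genes in every library of wild type days 0 to 2 (blue) and PERK KO days 0 to 3 (red), as log2(CPM + 0.1) with a bar at the mean of 3 libraries; the libraries of the pair are drawn in full colour and each panel has its own scale. TBXT, CDX2 and ASNS lie far lower in PERK KO day 2 than in wild type day 1, SOX2, FOXD3, OTX2 and FGFR2 lie higher, and FGF17 lies level.

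Definitive endoderm genes were mixed. Of 20 definitive endoderm genes tested, 9 were higher, 4 were lower and 7 were not called, with a median log2 fold change of 0.50, against 12.9% higher and 12.1% lower over all genes tested. In PERK KO day 1 against wild type day 1 the median was -0.66, and in PERK KO day 2 against wild type day 2 it was -0.87. From PERK KO day 1 to day 2, 12 were higher and 1 lower. SOX17, the endoderm transcription factor, measured 20.7, 30.1 and 18.3 CPM in PERK KO day 2, and had 1 count over the 3 wild type day 1 libraries against 1327 counts. The ratio was 1450 (exact 95% counting interval 260 to 57400). Wild type day 2 had 69.9 CPM ± 9.13 (SD, n = 3), so SOX17 in PERK KO day 2 lay between wild type days 1 and 2. HHEX, a homeobox factor of anterior endoderm, measured 15.1, 18.7 and 15 CPM against 1.05, 1.68 and 1.07 CPM, with 16.1 CPM in wild type day 2. CER1 and LHX1, secreted antagonist and homeobox factor of the anterior streak, both chosen after their values were seen, had log2 fold changes of 2.94 and 2.84. Wild type day 2 held 601 and 895 CPM of them, against means of 220 and 41.8 CPM in PERK KO day 2. SOX17, HHEX, CER1 and LHX1 thus all stood higher in the pair. GATA4, described above, and GATA6, chosen after its values were seen, went the other way. GATA6 measured 19.1, 28.4 and 23.3 CPM in PERK KO day 2 and 99, 68.6 and 76.2 CPM in wild type day 1.

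OTX2, a homeobox factor of the epiblast, anterior endoderm and forebrain, measured 86.8, 90.3 and 90.3 CPM in PERK KO day 2 and 9.17, 10.4 and 9.64 CPM in wild type day 1. The log2 fold change was 3.20 (SE 0.11, edgeR adjusted p = 4.49e-19). OTX2 was also higher in PERK KO at days 0, 3, 5 and 10, with log2 fold changes of 1.38, 0.37, 2.01 and 2.94. PERK KO day 1, at 11.1 CPM, was close to wild type day 1. On day 2 the order was the other way, with 207.1, 200.8 and 192.5 CPM in wild type, above PERK KO day 2.

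Pluripotency genes were higher in PERK KO day 2 for 14 of 26 members tested, and none was lower. Over all genes tested, 12.9% were higher and 12.1% lower. The median log2 fold change of the members was 0.71. In the fit of the 6 libraries alone, which called 58.1% of all its genes, 17 of 25 members were higher and 1 lower. SOX2, a core pluripotency and neural factor on chromosome 3 at 181711924 to 181714436, measured 286, 255 and 266 CPM in PERK KO day 2 and 13.9, 18.3 and 10.4 CPM in wild type day 1, a log2 fold change of 4.24 (SE 0.21). Undifferentiated wild type cells had 257 CPM ± 10.3 (SD, n = 3), a level that lay within the range of the PERK KO day 2 libraries. PODXL, a cell surface sialomucin of stem cells, measured 1256, 1248 and 1232 CPM against 189, 222 and 200 CPM, with 1404 CPM in wild type day 0.

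FOXD3, a forkhead factor of stem cells and neural crest, was low on day 1 in both genotypes and higher on day 2 in PERK KO. It measured 24.7, 22.4 and 23.2 CPM against 0.155, 0.367 and 0.266 CPM, a log2 fold change of 6.49 (SE 0.53). PERK KO day 1 had 0.762 CPM and wild type day 2 had 0.877 CPM, a log2 fold change of 4.72 for PERK KO day 2 against wild type day 2 (edgeR adjusted p = 2.61e-11). The 3 PERK KO libraries exceeded all 18 wild type libraries, those of day 0 included. Other pluripotency factors lay nearer to wild type day 1. NANOG, chosen after its values were seen, measured 48.4, 57.4 and 56.9 CPM against 40.1, 46.9 and 45.9 CPM and was not called, with an interval of the log2 fold change from -0.09 to 0.68; it was called in the fit of the 6 libraries alone (edgeR adjusted p = 0.00324). SALL4, another pluripotency factor, measured 178, 179 and 179 CPM against 170, 172 and 172 CPM. LIN28A, an RNA-binding protein that blocks let-7, had a log2 fold change of 0.34 with an interval of 0.07 to 0.61 and was not called; it was called by DESeq2 (adjusted p = 0.0473), without the 2 libraries outside the pair named above (edgeR adjusted p = 0.0093) and in the fit of the 6 libraries alone (edgeR adjusted p = 5.43e-06). The pluripotency list was thus not raised evenly.

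Of 25 neuroectoderm genes tested, 11 were higher, 3 were lower and 11 were not called, and 5 of the 11 higher ones exceeded all wild type libraries. Over all genes tested, 12.9% were higher, 12.1% were lower and 1.81% were called and above all wild type libraries. MAP2, ZIC5 and SIX3, named below, all stood higher, and the 3 lower members of the list are not named. The median log2 fold change of the list was 0.60 in the pair and -0.08 against wild type day 2. In the pair it was 1.31 without replicate 1 of wild type day 1 and 1.44 without its replicate 3. The summed level of the list was 1040 to 1070 CPM in PERK KO day 2, 677 to 725 CPM in wild type day 1 and 1530 to 1580 CPM in wild type day 2. MAP2, a microtubule protein of neurons, measured 22.5, 20.6 and 18.7 CPM against 1.36, 1.1 and 2.13 CPM, a log2 fold change of 3.76. ZIC5, a zinc finger factor of neural ectoderm, measured 66.2, 65.9 and 61.6 CPM against 16.8, 20.4 and 16.3 CPM. SIX3, a forebrain factor, had 48 counts in PERK KO day 2 and 1 in wild type day 1. It stayed near 1 CPM or below in the day 2 libraries, and reached 19.8 CPM in PERK KO day 3.

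Ligands and receptors of the other pathways differed member by member. Of 33 NODAL, TGF-β and BMP genes tested, 14 were lower and 8 higher. The share called was 66.7%, against 25.1% over all genes tested (12.1% lower and 12.9% higher). BMP2, a ligand, measured 8.01, 8.69 and 7.28 CPM in PERK KO day 2 and 146, 141 and 137 CPM in wild type day 1, with 13.3 CPM in PERK KO day 1. SMAD7, the inhibitory SMAD, measured 6.03, 8.37 and 8.12 CPM against 29.4, 26.7 and 29.9 CPM, below all wild type libraries, and was lower in PERK KO at days 0, 3, 5 and 10 as well. LEFTY2, a NODAL antagonist, was higher, with 17.5, 17.2 and 16.2 CPM against 3.73, 3.35 and 3.89 CPM. The ligand NODAL and its antagonist thus stood in opposite directions.

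Of 25 FGF pathway genes tested, 10 were lower and 7 higher, with a median log2 fold change of 0.02. The share called was 68%, against 25.1% over all genes tested. In the fit of the 6 libraries alone, which called 58.1% of all its genes, 12 of 24 members were higher and 10 lower. FGFR2, a receptor tyrosine kinase, measured 148, 144 and 150 CPM against 5.75, 5.24 and 5.22 CPM, a log2 fold change of 4.76 (SE 0.13, edgeR adjusted p = 3.26e-21). Its level was 77.5 CPM in wild type day 0 and 72.5 CPM in wild type day 2, so wild type day 1 was the low point. FGFR3 measured 25.9, 26.3 and 19.7 CPM against 4.35, 4.09 and 4.37 CPM. FGFR1 and FGFR4, chosen after their values were seen, had log2 fold changes of 1.34 and -0.91. Per transcript length, FGFR1 was the highest of the family in both groups, at 260 TPM ± 10.8 (SD, n = 3) in PERK KO day 2 and 111 TPM ± 6.92 (SD, n = 3) in wild type day 1. FGFR2 stood at 56.5 TPM ± 3.25 in PERK KO day 2, above FGFR4 at 22.7 TPM ± 1.5, whereas in wild type day 1 FGFR2 was at 2.17 TPM ± 0.212, below FGFR4 at 43.6 TPM ± 2.34. The ligand FGF8 measured 1.32, 1.66 and 1.13 CPM against 28.7, 28.8 and 31.1 CPM.

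Of 18 NOTCH genes tested, 7 were higher and 4 lower. The share called was 61.1%, against 25.1% over all genes tested. HES7, the segmentation clock repressor, measured 0.384, 1.07 and 0.517 CPM against 10.2, 6.97 and 6.71 CPM, and the ligands DLL1 and DLL3 had log2 fold changes of -1.14 and -1.15. DLL3 reached 1335 CPM in wild type day 2.

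Lists of housekeeping, cell cycle and stress genes differed in how many members were called. Shares called were 0% for respiratory chain, 12.5% for S phase, 33.3% for mitosis, 40% for p53 target and 36% for glycolysis and hypoxia genes. Over all genes tested the share was 25.1%. All 25 respiratory chain genes tested had an interval within 2-fold, and none was called by edgeR over all 36 libraries, although 2 had an unadjusted p under 0.05. DESeq2, which called 27.2% of all genes, called 1 higher, the fit of the 6 libraries alone called 10 higher and 3 lower, and 5 were higher without the 2 libraries outside the pair named above. Of 24 S phase genes, 22 had an interval within 2-fold, 2 were higher and 1, RRM2, was lower, and in the fit of the 6 libraries alone 5 were higher and 3 lower. RRM2, a subunit of ribonucleotide reductase, measured 82.3, 95 and 83.6 CPM against 248, 227 and 226 CPM. Of 24 mitosis genes, 8 were lower and none was higher, with a median log2 fold change of -0.43; in the fit of the 6 libraries alone 18 were lower and 1 higher. PLK1, a mitotic kinase, measured 89.4, 97.9 and 97.9 CPM against 159, 172 and 164 CPM. Of 20 p53 target genes, 7 were lower and 1 was higher. The 7 became 4 without wild type day 1 replicate 2 or PERK KO day 2 replicate 1, and 3 without PERK KO day 2 replicate 3, and the 1 became 3 in the fit of the 6 libraries alone. PMAIP1, which encodes the BH3-only protein NOXA, was the higher one, with 601, 514 and 623 CPM against 131, 138 and 140 CPM, above all 18 wild type libraries. GADD45A, a growth arrest gene, was below all 18, at 8.39, 11.2 and 9.06 CPM against 27.5, 28 and 26 CPM. Of 25 glycolysis and hypoxia genes, 7 were higher and 2 lower. The 7 became 4 without wild type day 1 replicate 2 or replicate 3 or with the length correction, and 3 without PERK KO day 2 replicate 3, and the fit of the 6 libraries alone called 12 higher and 7 lower. SLC2A1, the glucose transporter, fell by 1.38 on the log2 scale and LDHA, lactate dehydrogenase, rose by 0.76.

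Of 22 cholesterol synthesis genes, 7 were lower and 2 higher, and of 25 genes of adhesion and the epithelial to mesenchymal transition, 8 were lower and 2 higher. The shares called were 40.9% and 40%, against 25.1% over all genes tested. In the fit of the 6 libraries alone the counts were 12 lower and 6 higher, and 11 lower and 6 higher. The 2 higher adhesion genes became 0 without PERK KO day 2 replicate 2, and 1 without any other library of the pair except wild type day 1 replicate 2, and the 2 higher cholesterol genes became 5 without the 2 libraries outside the pair named above. CDH1, epithelial cadherin, measured 494, 498 and 523 CPM against 354, 375 and 351 CPM, above all wild type libraries, and CDH2, neural cadherin, measured 169, 201 and 199 CPM against 465, 440 and 457 CPM. CDH1 was lost from the calls when any 1 library of the pair except wild type day 1 replicate 2 was left out (edgeR adjusted p 0.0507 to 0.0768), and CDH2 was called with each one left out.

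**Figure D4:**
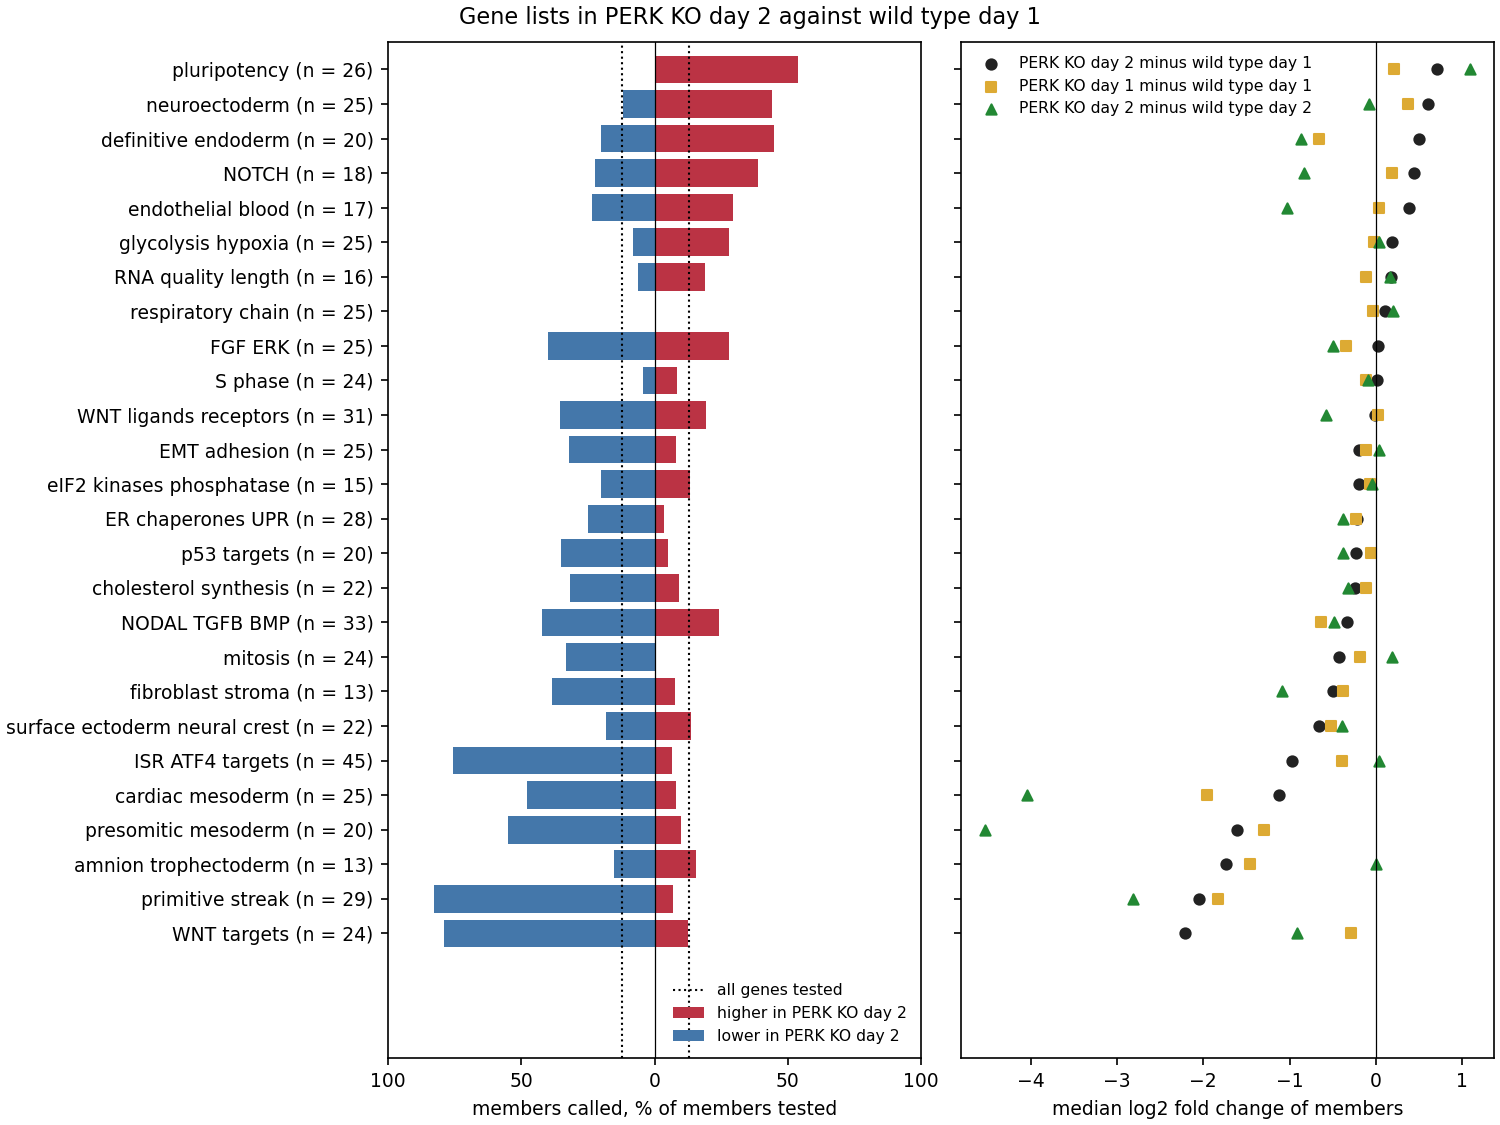
Left, share of the tested members of each of 26 gene lists that were called higher (red) or lower (blue) in PERK KO day 2 than in wild type day 1, in percent, with dotted lines at the shares over all genes tested (12.9% and 12.1%). Right, the median log2 fold change of each list in the pair (circles), in PERK KO day 1 against wild type day 1 (squares) and in PERK KO day 2 against wild type day 2 (triangles); the WNT and primitive streak lists have the lowest medians in the pair, and pluripotency the highest.

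Markers of other cell types and of RNA quality were read beside these results. Of 13 fibroblast and stroma genes tested, 5 were lower (3 without wild type day 1 replicate 2) and 1 was higher. The fit of the 6 libraries alone tested 9 of them and called 6 lower and 2 higher. The summed level of the list was 1630 to 1880 CPM in PERK KO day 2 against 2200 to 2240 CPM in wild type day 1. VIM, an intermediate filament of mesenchymal cells, measured 70.4, 65.9 and 69.7 CPM against 202, 195 and 178 CPM. Of 17 endothelial and blood genes, 5 were higher and 4 lower (2 without PERK KO day 2 replicate 3), and of 13 amnion and trophectoderm genes, 2 were higher and 2 lower, the latter with summed levels of 8.17 to 10.8 CPM in PERK KO day 2 and 8.39 to 9.44 CPM in wild type day 1. Of 22 surface ectoderm and neural crest genes, 3 were higher (1 without wild type day 1 replicate 3 or PERK KO day 2 replicate 1) and 4 lower. The fit of the 6 libraries alone tested 14 of them and called 5 higher and 6 lower, where it called 58.1% of all genes. Of 16 genes that read RNA quality and transcript length, 3 were higher (1 without wild type day 1 replicate 3) and 1 lower. In the fit of the 6 libraries alone 8 were higher and 4 lower. The share called was 46.2% for fibroblast and stroma and 52.9% for endothelial and blood genes. It was 30.8% for amnion and trophectoderm, 31.8% for surface ectoderm and neural crest and 25% for RNA quality, against 25.1% over all genes. The nuclear RNAs MALAT1 and NEAT1 had log2 fold changes of 1.13 and -0.67, and MT-CO3, a mitochondrial transcript, one of -0.04. MALAT1 was no longer called with any 1 library of the pair left out except PERK KO day 2 replicate 2, and NEAT1 with any but wild type day 1 replicate 1. The part of these levels in the results above was not tested.

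Some genes of PERK KO day 2 lay outside the range of the wild type libraries at every day, so that no wild type day measured matched them. Among the genes called in the pair, 665 of 19772 (3.36%) were above or below all 18 wild type libraries in all 3 PERK KO libraries, 358 above (1.81%) and 307 below (1.55%). Against the 9 wild type libraries of days 0 to 2 alone, 1418 (7.17%) were outside, and with a correction for the effective transcript length, 438 were outside all 18. ADM, which encodes the vasoactive peptide adrenomedullin, measured 60.9, 60.2 and 56.1 CPM against 1.36, 2.04 and 1.01 CPM in wild type day 1. Wild type day 0 had 55.1, 44.1 and 36 CPM, so its highest library lay just below the lowest of PERK KO day 2. CXCL3, a chemokine, measured 15.6, 16.3 and 18.4 CPM against 0.583, 0.577 and 1.01 CPM. WFIKKN2, a secreted protease inhibitor domain protein that binds GDF8 and GDF11, measured 13.1, 11.3 and 8.97 CPM against 0.117, 0.21 and 0.266 CPM. These genes had PERK KO day 1 levels well under those of day 2, with log2 fold changes from PERK KO day 1 to day 2 of 1.99 for ADM, 3.89 for CXCL3 and 5.43 for WFIKKN2.

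Below all wild type libraries, DACT1, an intracellular WNT modulator, measured 5.1, 7.89 and 7.75 CPM against 137, 136 and 143 CPM, and 385 CPM in wild type day 2. NEDD9, a focal adhesion scaffold, measured 3.46, 3.65 and 4.51 CPM against 65.3, 60.1 and 51.8 CPM. NEDD9 was lower by as much in PERK KO day 1, with a log2 fold change of -3.89, as in PERK KO day 2, with -3.93.

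**Figure D5:**
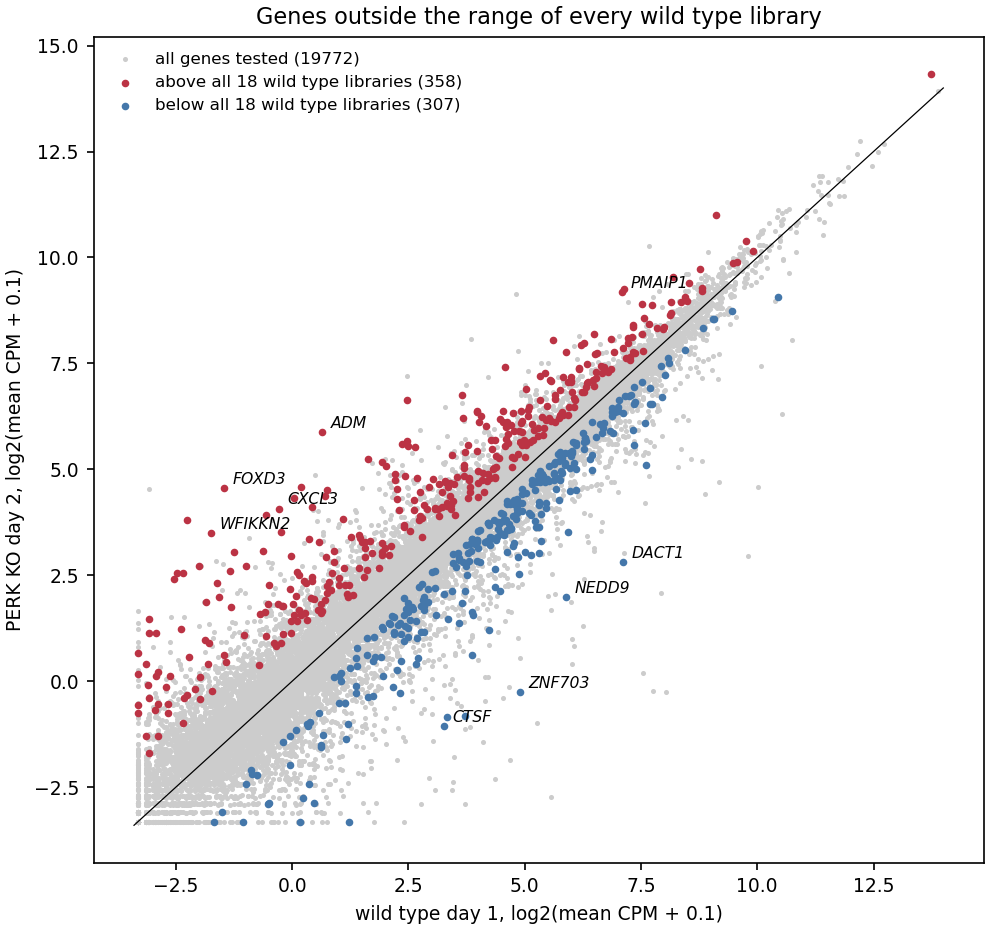
Mean level in PERK KO day 2 against wild type day 1, both as log2(mean CPM + 0.1), for all 19772 genes tested, with genes above all 18 wild type libraries in red (358) and genes below them in blue (307). The line marks equal levels; FOXD3 and ADM lie far above it, and CTSF and DACT1 far below.

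Differences between genotypes that recurred at other days were set beside those of the pair. Libraries that are not in the pair called 544 genes (2.75%) the same way at days 0, 3, 5 and 10, 244 higher (1.23%) and 300 lower (1.52%) in PERK KO. Of the 544, 131 (24.1%) were called in the same direction in the pair, 112 were called in the opposite direction and 301 were not called. By direction, 51 of the 244 were higher in the pair and 80 of the 300 lower, where 12.9% of all genes were higher and 12.1% lower. The 131 made up 2.64% of the genes called in the pair. This share leaves out the 112 called in the opposite direction, so it cannot be set against the 2.75% over all genes tested. Leaving out the 2 libraries named above gave 222 of 864 (25.7%) in the same direction, and these were 3.26% of the genes then called. CTSF, which encodes cathepsin F, measured 0.274, 0.59 and 0.282 CPM in PERK KO day 2 and 10.8, 9.12 and 8.58 CPM in wild type day 1. Its log2 fold changes at days 0, 3, 5 and 10 were -7.27, -3.82, -3.93 and -9.94. LRFN5, a synaptic adhesion protein, measured 0.384, 0.751 and 0.235 CPM against 11, 9.91 and 9 CPM. SLCO2A1, a prostaglandin transporter, measured 4.55, 5.74 and 5.45 CPM against 79.5, 77.4 and 76.3 CPM. Among the higher genes, SFRP1, described above, had log2 fold changes of 0.51, 1.79, 3.44 and 0.74 at those days. IARS, the isoleucyl-tRNA synthetase, chosen after its values were seen, went against its own direction at other days: it was higher in PERK KO at days 0, 3, 5 and 10 (log2 fold changes 0.45, 0.68, 0.81 and 0.46) and lower in the pair, with 327, 330 and 327 CPM against 431, 410 and 422 CPM. Its call in the pair (edgeR adjusted p = 0.0274) was lost with any 1 library of the pair left out, at 0.0509 to 0.0827.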

How the data were processed

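RNA-seq libraries from 36 samples (3 for each of 12 groups of genotype and day) were used. Reads were aligned with STAR and quantified with RSEM on GRCh38, per the submitters' processing notes, which give no versions or roles; whether counting used strand is not given, so antisense and overlapping genes are uncertain. The deposited values were expected counts and TPM per gene, with an effective length in nucleotides, by the authors; 58721 identifiers matched GENCODE 29. Expected counts were rounded (6.53% to 9.43% of values were fractional) and held 14002137 to 25860481 reads per library. Genes were filtered by filterByExpr, scaled by TMM and tested by the quasi-likelihood F test in edgeR 4.0.16 (R 4.3.3) over all 36 libraries as 12 groups, with Benjamini-Hochberg adjustment over 19772 genes. SEs and 95% intervals of log2 fold changes came from the same fit. Members of the pair, gene lists and tests were chosen with earlier results of these data known; a gene can be in more than one list. Named genes were EIF2AK3, the largest called changes each way with at least 5 CPM in 1 group and no overlap, the 4 members of each list with the smallest p and up to 3 with the narrowest interval within 2-fold, and the largest outside all wild type libraries or called at days 0, 3, 5 and 10. Others are said to be chosen after their values were seen. On simulated counts for this comparison over 19558 genes, 13.4% of genes made to differ 1.5-fold were recovered, as were 59.7% at 2-fold and 100% at 4-fold. In the simulation 3 calls were false. Only a small part of its genes was made to differ, so these shares need not hold for the pair. Alternatives were filters, RLE scaling, DESeq2 1.42.0, fits of fewer libraries, a replicate block and a length offset. Some of the named genes are not reported here.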

Additional observations from a re-analysis of the deposited data

How the results depend on the processing

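The fit of the 6 libraries alone called 9656 genes different in place of 4953, and 1090 of these lay outside all wild type libraries in place of 665. With the replicate block it called 9670 genes, and 1093 lay outside. The effective length offset left 438 outside, and a range of wild type days 0 to 2 only gave 1418. Leaving out replicate 2 of PERK KO day 0 together with replicate 3 of wild type day 2, genes also called at days 0, 3, 5 and 10 numbered 222 in place of 131. The cause was not tested. Other filters, RLE scaling, DESeq2 (5384 called) and the replicate block over all 36 libraries (5052 called) kept the count of called genes within 1.5 times, and the series matrix gave the same counts. Leaving out 1 library of the pair at a time gave 3801 to 4101 genes called, 2211 to 2328 at least 2-fold, 9507 to 9615 within 2-fold and 572 to 692 outside all wild type libraries. None of the named genes reversed direction. Without a filter on low counts 12 of them were no longer called, with the length offset 8, and with 1 library of the pair left out 7 to 13. Others were gained: 27 in the fit of the 6 libraries alone, 26 there with the replicate block, 13 without the 2 libraries outside the pair, 4 by DESeq2, and 1 each with RLE scaling, the replicate block over all 36 libraries and the length offset. The medians of the WNT ligand and FGF lists, near 0, changed sign between settings. Same-numbered libraries of the pair correlated by 0.0658, 0.0421 and 0.00938 in their deviations from the group means. Differently numbered ones correlated by -0.0874 to 0.0495. Values this weak cannot show whether the numbers pair the libraries, and the labels state no pairing. The test called 59.7% of simulated 2-fold changes, but few genes were made to differ there, whereas 25.1% were called in the pair. That share therefore does not give the recovery in the pair, where small differences could still be missed.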
